A study of Mus musculus with 7 samples.

Results

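Adult mouse heart was compared with fetal mouse heart across all genes of a whole-genome expression array. The comparison took 3 of the 7 arrays of the study, chosen by their titles: 1 array of adult heart and 2 arrays of fetal heart at embryonic day 16.5. The adult sample was commercial total RNA of mouse heart (Clontech), whose strain, age, sex and number of animals the labels do not give. The first fetal sample was wild-type heart on a C57BL/6 background. The second fetal sample was heart of the C57BL/6-Tg(Myh6-EGFP)MG2 line, in which the promoter of Myh6, the alpha myosin heavy chain gene of cardiomyocytes, drives the green fluorescent protein EGFP. The labels do not say how many embryos went into either fetal sample. The other 4 arrays hold cultured cells and were not used. Each array received RNA labelled with the dye Cy3 from 250 ng of starting material, and was a 1-colour Agilent array of 60-base probes. All 3 heart arrays lay on 1 slide and were scanned in 1 scan.

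A level here is the log2 of the background-subtracted spot signal minus the 75th percentile of that signal on the same array. Levels are given in a fixed order throughout: adult, wild-type fetal, Myh6-EGFP fetal. A difference is the adult level minus the mean of the 2 fetal levels, on the log2 scale, with its standard error (SE). Each gene was followed with 1 probe, so a difference compares a probe with itself between arrays, and levels of different probes are not compared. The spread behind the SE comes from the fetal pair, which also differs in genotype, and from limma's pooling of that spread over all genes. The lone adult array was assumed to vary as the fetal arrays do, and p-values measure this spread only. Behind each p-value the fetal pair gave 1 degree of freedom and the pooling over genes gave 49.38 (median). Small p-values therefore rest mostly on the pooled spread. A gene is said to have risen or fallen in the adult heart only where the limma p adjusted by Benjamini-Hochberg over all genes tested was below 0.05. A change in a whole-heart level cannot be divided into a change in the number of cells of a type and a change in RNA per cell.

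The mouse heart grows before birth mainly by division of cardiomyocytes, and these cells leave the cell cycle and enlarge in the weeks after birth. Over the same time the heart moves from glucose and lactate towards fatty acids as its main fuel, and its sarcomeres, ion channels and calcium stores take their adult form. The fetal circulation also carries embryonic globins, and imprinted growth genes are active in many fetal organs. These are textbook features of heart maturation and not results of these arrays.

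The 3 arrays carried the transcripts that define heart. Myh6, Tnnt2 (cardiac troponin T), Actc1 (cardiac actin) and Nkx2-5 (a cardiac transcription factor) were well above background on each of them. Each sample also held transcripts of other tissues, and these are given first because they touch several results. The adult RNA held transcripts of the exocrine pancreas. Of 29 pancreatic enzyme genes on the array, in a list drawn up after their values were seen, 28 were well above background on the adult array, against 12 on the wild-type and 9 on the Myh6-EGFP fetal array. Their summed signal was 143 on the adult array, 3.71 on the wild-type fetal array and 4.91 on the Myh6-EGFP fetal array, in multiples of each array's 75th percentile. Amy2a5, a pancreatic amylase, had levels of 4.74, -6.59 and -6.03. Ptf1a, a transcription factor that defines pancreatic acinar cells, was not well above background on the adult array, at -5.29.

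The wild-type fetal array held transcripts of neighbouring embryonic tissues that were lower or dim on the other fetal array. Afp, the fetal albumin of liver, had levels of -5.52, 4.27 and -2.03. Sftpc, a lung surfactant protein, had levels of -4.44, 3.30 and -5.89. Myog, a skeletal muscle transcription factor, had levels of -5.55, 2.08 and -2.41, although the summed signal of all 20 skeletal muscle genes was higher on the Myh6-EGFP array. Of the 20 lung, liver and thymus genes, 15 were well above background on the wild-type fetal array, 7 on the Myh6-EGFP array and 8 on the adult array, with summed signals of 50.6, 8.68 and 13.3. Of 11 tested cartilage genes, also listed after their values were seen, 8 were at least 2-fold lower on the Myh6-EGFP than on the wild-type fetal array. Between the fetal arrays, 2020 of the 21055 tested genes differed at least 2-fold (9.59%). Of these, 914 were higher in wild type (4.34%) and 1106 were higher in the transgenic heart (5.25%). That order turned with quantile normalisation, to 1022 and 756, and with normexp background, to 400 and 311. Sarcomere genes were a median of 1.07 higher on the Myh6-EGFP array and complex I genes 0.80 higher, against 0.15 over all tested genes. With 1 array of each genotype, the transgene, the dissection and the animals cannot be told apart. For this reason values are given against each fetal array where they diverge.

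**Figure D1:**
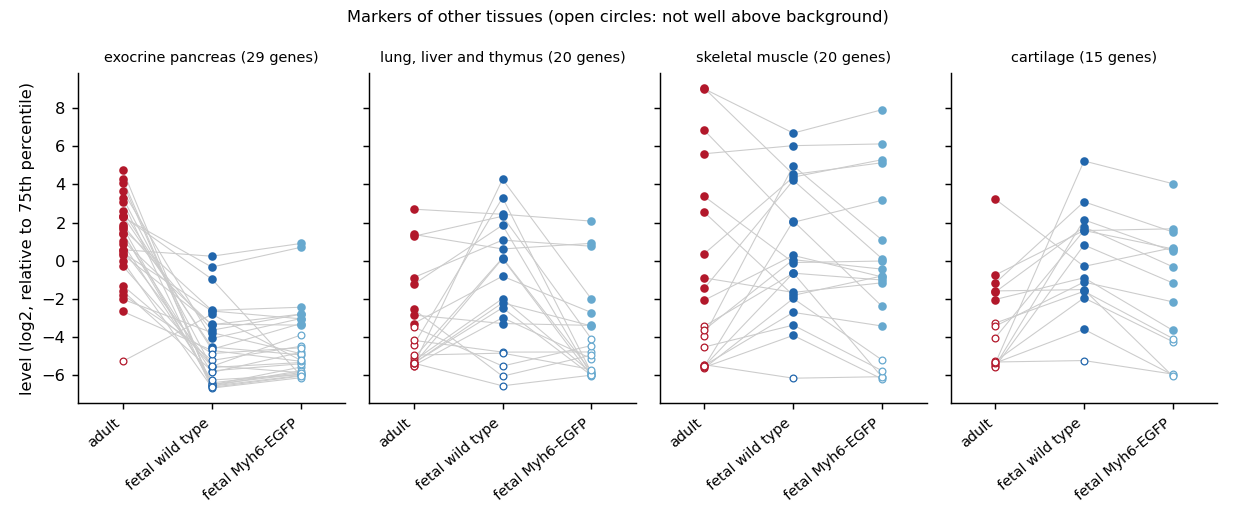
Levels (log2, relative to the array's 75th percentile) of marker genes of other tissues on the adult, wild-type fetal and Myh6-EGFP fetal arrays; each line is 1 gene, filled circles are probes well above background and open circles are not. The 28 pancreatic genes above background in the adult sit mostly near background on the fetal arrays, and 15 of 20 lung, liver and thymus genes are above background on the wild-type array against 7 on the Myh6-EGFP array.

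Of 34793 gene names on the array, 21055 were tested because their probe was well above background in the adult or on both fetal arrays. Of the tested genes, 1847 were not well above background in the adult and could hardly be called higher. Another 1085 were not well above background on either fetal array and could hardly be called lower. Altogether 8612 genes were called different (40.9%), of which 4599 rose (21.8%) and 4013 fell (19.1%) in the adult heart. The smallest difference called was 0.79 on the log2 scale, and 10068 genes had an unadjusted p below 0.05. Of the 8612 called genes, 8606 differed in the same direction from each fetal array. By a count that needs no model, 7891 genes lay at least 2-fold beyond both fetal arrays (37.5%), 4327 above them (20.6%) and 3564 below them (16.9%). Against the Myh6-EGFP array alone 9052 genes differed at least 2-fold, and against the wild-type array alone 10120. The adult level lay above both fetal levels for 9849 genes (46.8%) and below both for 8736 (41.5%). The median difference over all tested genes was 0.10. Gene groups are read below against these shares, and a group with a share near 21.8% higher or 19.1% lower is near the background.

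**Figure D2:**
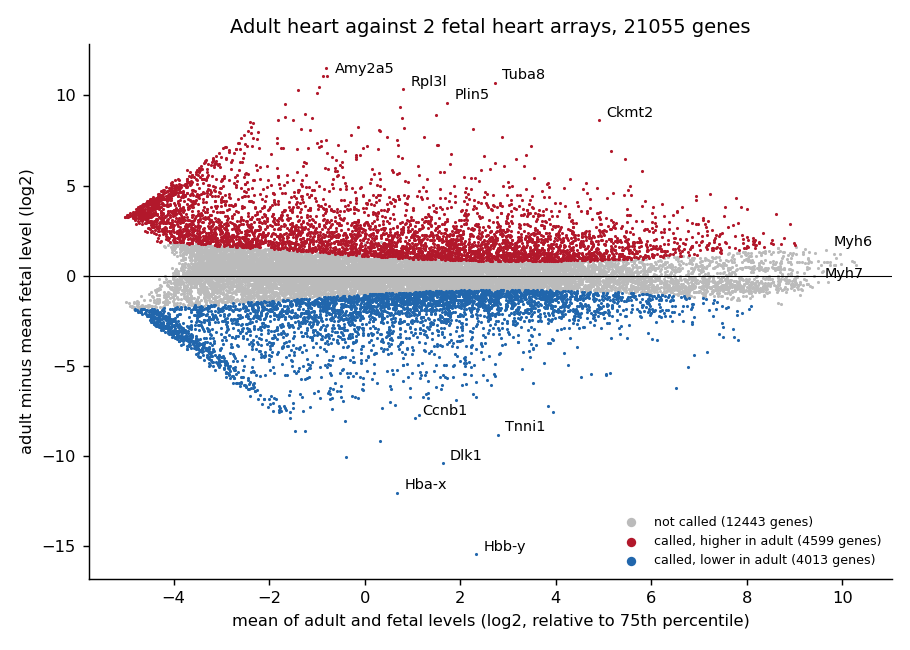
Difference between the adult level and the mean fetal level (log2) against the mean of both levels for the 21055 tested genes, with 4599 genes called higher in adult in red, 4013 called lower in blue and the rest in grey. Labelled genes are those named in the text; for genes dim in 1 group, such as Hbb-y, Hba-x, Dlk1 and Amy2a5, the plotted value is the fitted difference, and the text gives a lower bound.

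Among the 12 largest rises were genes of muscle, genes of the pancreas and others. Tuba8, an alpha tubulin of muscle and testis, had levels of 8.07, -2.44 and -2.82, a difference of 10.70 (SE 0.39, adjusted p = 2.52e-28). Plin5, which coats lipid droplets in oxidative tissues, had levels of 6.52, -2.91 and -3.24, a difference of 9.60 (SE 0.43, adjusted p = 2.88e-24). Ckmt2, the mitochondrial creatine kinase of heart and skeletal muscle, had levels of 9.22, -0.07 and 1.27, a difference of 8.62 (SE 0.37, adjusted p = 1.78e-25). In each of the 3 genes the adult array stood far above both fetal arrays. The other genes among the 12 largest rises were Rpl3l, Plin4, Aqp6, Scgb1c1, Slc25a34, Armc2 and the digestive enzymes Amy2a5, Try5 and Try4. Aqp6, a water channel, was at least 704-fold higher and Scgb1c1, a secretoglobin, at least 578-fold higher. Second probes gave differences of only 3.92 for Aqp6 and 3.21 for Armc2. The main Armc2 probe was well above background on all 3 arrays. For Aqp6, Scgb1c1, Amy2a5, Try5 and Try4 both fetal arrays were dim. Their bound sets the fetal level at the lowest signal called well above background. Amy2a5, Try5 and Try4 were at least 610-fold, 438-fold and 380-fold higher, and they belong to the pancreatic genes described above, whose place in a heart sample was not tested.

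The 12 largest falls included 2 embryonic globins. Hbb-y, an embryonic beta-type globin of early red cells, had levels of -5.40, 9.80 and 10.35 and was at least 11451-fold lower in the adult, where its probe was dim. Hba-x, the embryonic alpha-type globin, had levels of -5.35, 6.46 and 6.94 and was at least 1106.5-fold lower. Dlk1, a paternally expressed membrane protein of fetal progenitor cells, had levels of -3.58, 7.64 and 6.02 and was at least 1212-fold lower. All 3 probes were bright on both fetal arrays and dim in the adult. The rest of the 12 were Tnni1, Gtsf1, Col2a1, Ccnb1, Fbn2, Cited1, Mest, Capn6 and Igf2as. Gtsf1 was at least 319-fold lower and Col2a1, the collagen of cartilage, at least 264-fold lower. Col2a1 levels were -5.42, 5.23 and 4.04, so the adult lay below both fetal arrays. Of 15 cartilage genes, 14 were well above background on the wild-type and 10 on the Myh6-EGFP fetal array, against 6 in the adult. Cited1, a transcriptional co-regulator, fell by 7.57 and Capn6, a calpain-like protein that binds microtubules, fell by 7.20.

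In the contractile apparatus the troponin I genes moved in opposite directions. Troponin I is the inhibitory subunit of the troponin complex, and fetal cardiomyocytes make the slow skeletal form, Tnni1, before the cardiac form, Tnni3, replaces it. Tnni1 had levels of -1.62, 6.72 and 7.70. Its adult level was 457-fold below the fetal mean, a difference of -8.83 (SE 0.36, adjusted p = 4.42e-26). Tnni3 moved the other way, with levels of 9.27, 5.80 and 6.95 and a difference of 2.90 (SE 0.54, adjusted p = 1.58e-05). The 2 probes are shown as the sequences these opposite differences were read from; both were well above background on all 3 arrays. They lie on chr1:137705328-137706203 (mm9, plus strand, over a span longer than the probe, so that the probe joins exons) and on chr7:4472043-4472102 (mm9, minus strand). Capitals mark the longest run of bases that each shares with the probe of another troponin I gene, which was 6 bases for each. The probes can lie at different places in their transcripts, so a short run says nothing of how either probe binds a related transcript.
Tnni1: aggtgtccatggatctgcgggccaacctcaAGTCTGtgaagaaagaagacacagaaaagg
Tnni3: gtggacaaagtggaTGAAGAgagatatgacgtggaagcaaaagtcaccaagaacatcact

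Of 28 tested adult-type sarcomere genes, 16 rose and 0 fell in the adult, with a median difference of 1.47, against 21.8% and 0.10 over all genes. The median was 2.07 against the wild-type and 0.99 against the Myh6-EGFP fetal array, and 14 of the 28 lay at least 2-fold above both. Tcap, which caps titin at the Z-disc, had levels of 9.80, 5.33 and 6.60, a difference of 3.84 (SE 0.53, adjusted p = 4.76e-08). Myom2, the M-band protein of fast fibres and adult heart, had levels of 8.70, 2.36 and 2.05, a difference of 6.49 (SE 0.34, adjusted p = 1.30e-21). Trim54, a ubiquitin ligase of the sarcomere, rose by 5.40 and Mypn, a Z-disc protein, by 3.63. In these genes the adult array lay above both fetal arrays. Myot, another Z-disc protein, rose by 6.69 from levels of 3.23, -0.89 and -6.01, but the probe was dim on the Myh6-EGFP array and the call was lost with quantile normalisation (adjusted p = 0.102) and with a robust prior (adjusted p = 0.502).

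Several main sarcomere genes were not called. Myh6 had levels of 10.37, 8.56 and 9.32, a difference of 1.42 (SE 0.82, adjusted p = 0.164), and the adult array was above both fetal arrays. It was called with normexp background correction (adjusted p = 0.0426) and with the mean of all its probes (adjusted p = 9.82e-09), its other probe giving a difference of 4.32. Myh7, the beta myosin heavy chain of the fetal ventricle, had levels of 9.32, 9.18 and 10.13, and the adult level lay between the fetal arrays (difference -0.33, SE 0.84, adjusted p = 0.781). Myl2, the ventricular regulatory light chain, had levels of 10.12, 8.96 and 9.72 and a difference of 0.78 (SE 0.85, adjusted p = 0.493), which was called with the mean of its probes (adjusted p = 0.000447). For Tnnt2 the levels were 9.95, 8.18 and 9.09, and for Actc1 they were 10.61, 9.54 and 10.19. Their differences of 1.31 and 0.74 had SEs of 0.76 and 0.95. The SEs of these bright probes were above the median SE over all genes, which was 0.45. A missed threshold at these genes therefore does not show equal levels.

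Fetal-type and smooth or skeletal muscle isoforms went in both directions: 6 of 16 fell and 3 rose, with a median of -0.56. Myl7, the atrial light chain that the embryonic ventricle also makes, had levels of 5.19, 6.80 and 7.51, a difference of -1.97 (SE 0.46, adjusted p = 3.85e-04). Its partner Myl4 had levels of 7.91, 9.09 and 9.92 and a difference of -1.59 (SE 0.74, adjusted p = 0.0803), with the adult below both fetal arrays. Myl4 was called lower with quantile normalisation (adjusted p = 0.019) and with normexp (adjusted p = 0.00243). Tnnt1, slow skeletal troponin T, fell by 3.57, Cnn1, smooth muscle calponin, by 3.43, and Nes, the intermediate filament nestin, by 1.65. Acta1 went against the name of its list. This skeletal alpha actin had levels of 9.05, 4.52 and 5.14, a difference of 4.22 (SE 0.44, adjusted p = 1.48e-11), with the adult above both fetal arrays. The coding sequences of the muscle actins are nearly identical, so signal at an actin probe in coding sequence may come from another actin. Ankrd1, a stress-responsive ankyrin repeat protein, rose by 2.10. Myom3 was called higher (1.96), but its adult level of 0.52 lay between the wild-type (0.77) and Myh6-EGFP (-3.64) arrays, and against wild type alone it was lower.

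**Figure D3:**
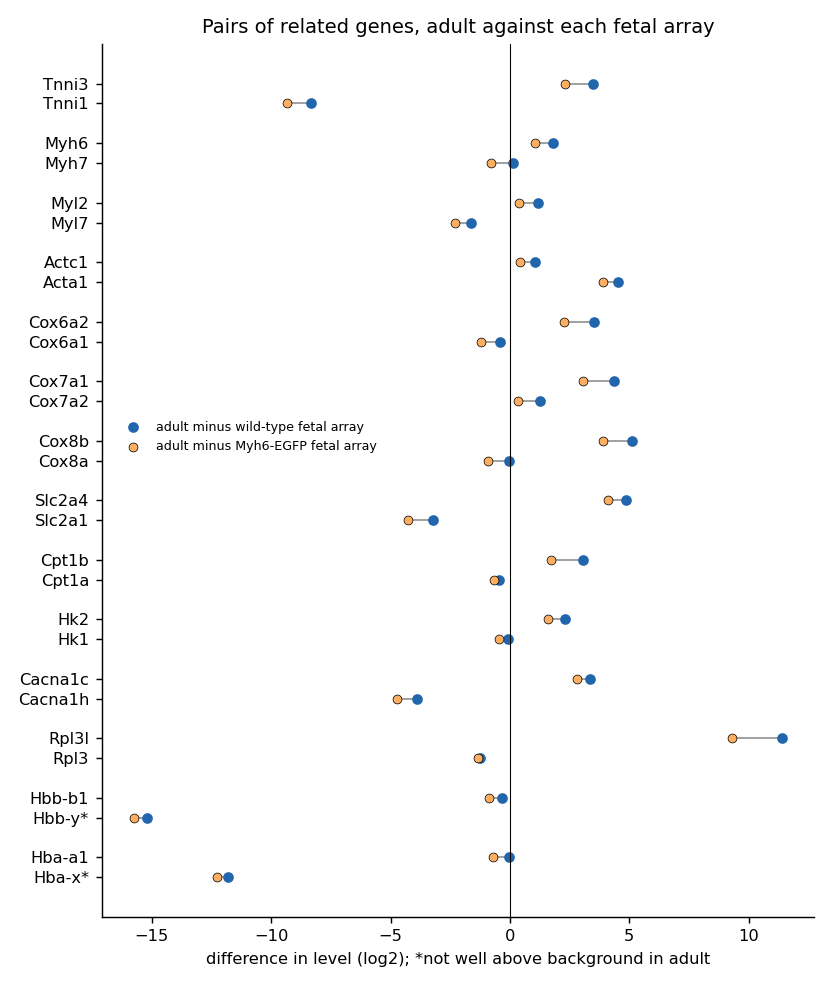
Difference in level (log2) of the adult array from the wild-type fetal array (blue) and from the Myh6-EGFP fetal array (orange) for 28 genes in related pairs; a grey line joins both values of a gene, and an asterisk marks genes dim in the adult. Tnni1, Slc2a1, Cacna1h, Hbb-y and Hba-x lie left of 0 and Tnni3, Slc2a4, Cacna1c, Cox7a1, Cox8b and Rpl3l right of 0 against each fetal array.

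Calcium handling genes were mostly higher in the adult heart: 16 of 27 rose and 4 fell, with a median of 2.25. Each beat releases calcium from the sarcoplasmic reticulum through the ryanodine receptor and takes it back through a calcium pump. Ryr2, the ryanodine receptor, had levels of 4.39, 0.67 and 1.61, a difference of 3.25 (SE 0.35, adjusted p = 7.30e-11). Atp2a2, the calcium pump SERCA2, had levels of 8.63, 5.01 and 6.05, a difference of 3.10 (SE 0.47, adjusted p = 3.21e-07). Pln, phospholamban, which restrains the pump, rose by 3.38 from levels of 7.23, 3.24 and 4.47. In all 3 genes the adult array was above both fetal arrays. Among the other release and storage genes, Casq2 (calsequestrin) rose by 3.45, Hrc (a calcium-binding protein of the store) by 3.83, Tmem38a (a potassium channel of the store) by 3.68 and S100a1 (a calcium sensor) by 4.02. Sln, sarcolipin, a small inhibitor of the pump, rose by 2.59. Asph, which encodes junctin among other products, rose by 4.45, while other probes of the gene ranged from -0.06 to 6.51. Cacna1c, the L-type calcium channel of adult cardiomyocytes, had levels of -1.0, -4.35 and -3.83, a difference of 3.09 (SE 0.68, adjusted p = 1.91e-04). Cacna1h, the T-type channel of the fetal heart, had levels of -1.95, 1.96 and 2.77, a difference of -4.31 (SE 0.40, adjusted p = 3.92e-13). A second probe of Cacna1h gave 2.41, and the call was lost with the mean of its probes (adjusted p = 0.212). Also lower were Jsrp1, a junctional protein of the store, with a difference of -2.41, and Fkbp1b, the ryanodine receptor's FK506-binding partner, with -1.42. Camk2a fell by 1.26, with another probe at 0.12 and a call that 5 alternatives did not keep.

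Ion channel genes rose at 18 of 29 tested members and fell at 2, with a median of 1.83 (2.41 against wild type, 1.37 against Myh6-EGFP). Kcnip2, the auxiliary subunit of the fast transient outward potassium current, had levels of 2.51, -6.24 and -6.05 and was at least 130-fold higher in the adult. Scn4b, an auxiliary subunit of the cardiac sodium channel, had levels of 3.99, -4.52 and -4.01 and was at least 305-fold higher. The fetal probes of both genes were dim, and for Scn4b the bound equals the measured fold, since its dim signals lay above the lowest signal called well above background. Kcnk3, a background potassium channel, rose by 3.32. Kcne3, a potassium channel subunit, fell by 3.68 from levels of -2.42, 0.82 and 1.70. Kcne2 was called lower, but its bound was 1.74-fold and the call was lost with normexp (adjusted p = 0.532). Hcn4, the pacemaker channel, was not well above background on any of the 3 arrays and was not tested. At the intercalated disc, where cardiomyocytes join, 8 of 19 genes rose and 3 fell. Xirp2, an actin-binding protein of the disc, had levels of 3.25, -6.50 and -4.99 and was at least 217-fold higher. Des (desmin) rose by 2.40, Cdh13 (T-cadherin) by 2.38 and Dsp (desmoplakin) by 1.91. Gja5, the connexin of atrium and conduction system, had levels of -0.33, 3.02 and 3.97 and fell by 3.83. Gjc1, another connexin, fell by 1.62.

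Genes of fatty acid use were higher in the adult heart nearly throughout. Of 25 tested uptake, storage and activation genes 20 rose and 2 fell (median 2.38), and of 22 oxidation genes 20 rose and 1 fell (median 2.17). Lpl, the lipase that frees fatty acids from blood lipids, had levels of 8.70, 2.60 and 3.22, a difference of 5.79 (SE 0.37, adjusted p = 7.18e-19). Acsl1, which activates long-chain fatty acids, had levels of 7.30, 2.19 and 2.65, a difference of 4.89 (SE 0.34, adjusted p = 2.45e-17). Dgat2, an enzyme of triglyceride synthesis, rose by 5.16, and the droplet proteins Plin4 and Plin5 rose as well, Plin5 by 9.60 and Plin4 by 9.57 against the wild-type array, its probe being dim on the Myh6-EGFP array. Plin4 is abundant in adipocytes, and adipocyte genes were also higher in the adult sample, as given below. Cpt1b, the muscle form of the carnitine transferase that admits fatty acids to mitochondria, had levels of 5.78, 2.74 and 4.07, a difference of 2.38 (SE 0.38, adjusted p = 7.60e-07), and its call was lost with quantile normalisation (adjusted p = 0.0543). Cpt1a, the liver form, had levels of 1.51, 1.98 and 2.18, a difference of -0.57 (SE 0.34, adjusted p = 0.189), and its other probe gave 0.46. The fallers were Acsl3, an activating enzyme (-3.22), and Acaca, which makes malonyl-CoA for synthesis (-1.56), whose call was lost with the mean of its probes (adjusted p = 0.0656). Within mitochondria, Acadvl and Acadm, the dehydrogenases for very long and medium chains, rose by 3.19 and 3.32. Hadhb, part of the trifunctional protein, rose by 2.89, and Decr1, needed for unsaturated chains, by 3.08. Bdh1, an enzyme of ketone use, rose by 3.29. Acot1, a thioesterase, fell by 2.18 from levels of 1.54, 3.98 and 3.46. Both lists kept at least 20 members 2-fold above each fetal array taken alone.

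Regulators of oxidative metabolism rose at 13 of 22 members and fell at 2. Ppara, the fatty acid receptor that drives oxidation genes, had levels of 4.33, -0.37 and 0.48, a difference of 4.27 (SE 0.37, adjusted p = 7.14e-14). Rxrg, a partner of nuclear receptors, rose by 2.91 (another probe gave 5.79), Klf15, a Krüppel-like factor of cardiac metabolism, by 3.73, and Pdk2, which restrains pyruvate oxidation, by 3.34. The gene named 2310042D19Rik on the array, listed here under an older name of the coactivator Perm1, rose by 6.74. Nrf1, the nuclear respiratory factor, fell by 1.35, a call lost with the mean of its probes (adjusted p = 0.0777). Angptl4, a secreted inhibitor of lipoprotein lipase, fell by 2.78 from levels of 0.65, 3.84 and 3.02.

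The citrate cycle and respiratory chain were broadly higher, with graded shares called. Of 29 citrate cycle and pyruvate genes 26 rose and 0 fell (median 1.72), and all 29 lay above both fetal arrays. Complex I, which takes electrons from NADH, had 23 of 37 genes higher and 1 lower (median 1.51). Complexes III and IV had 13 of 24 higher and 0 lower (median 1.35). Among ATP synthase genes only 4 of 19 were called, all higher, which is a share near the 21.8% of all genes, although 17 of the 19 lay above both fetal arrays. The medians were larger against the wild-type array than against the Myh6-EGFP array for all 4 lists, at 2.08 and 1.46, 1.89 and 1.10, 1.80 and 0.95, and 1.57 and 0.80. Idh3b, a subunit of isocitrate dehydrogenase, rose by 2.96, Ogdh, of oxoglutarate dehydrogenase, by 2.55, and Got1, of the malate-aspartate shuttle, by 2.90. Brp44l, an older name of the mitochondrial pyruvate carrier Mpc1, rose by 3.37. Ndufs7, Ndufa10 and Ndufb10 of complex I rose by 1.98, 1.95 and 1.88. Ndufab1, which also serves as an acyl carrier, fell by 1.14 and lost its call with quantile normalisation (adjusted p = 0.0623).

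Within complex IV the muscle isoforms of 3 small subunits rose, and their ubiquitous counterparts were not called. Cox8b had levels of 9.47, 4.35 and 5.59, a difference of 4.51 (SE 0.47, adjusted p = 2.07e-11). Cox7a1 had levels of 9.86, 5.49 and 6.79, a difference of 3.71 (SE 0.55, adjusted p = 1.80e-07). For Cox6a2 they were 10.34, 6.82 and 8.09, a difference of 2.89 (SE 0.67, adjusted p = 3.77e-04). In the 3 muscle isoforms the adult array was above both fetal arrays. The counterparts Cox8a, Cox7a2 and Cox6a1 differed by -0.50 (SE 0.68), 0.81 (SE 0.55) and -0.81 (SE 0.79), with adjusted p-values of 0.594, 0.247 and 0.438. Cox6a1 was called lower with quantile normalisation (adjusted p = 0.043). Probes of the muscle gene Cox7a1 and of Ckmt2 are printed as examples of this group. They lie on chr7:30970337-30970948 (plus strand) and on chr13:91993242-91995390 (minus strand) in mm9, each over more than its own length. Capitals mark the longest run shared with a probe of a related gene, of 6 bases with Cox7a2 and 5 bases with Ckm. Such runs between probes, as for troponin I, say nothing of binding to the related transcripts.
Cox7a1: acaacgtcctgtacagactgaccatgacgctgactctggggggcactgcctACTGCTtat
Ckmt2: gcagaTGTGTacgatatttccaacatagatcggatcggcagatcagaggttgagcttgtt

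Energy transfer genes followed the mitochondria. Besides Ckmt2, Ckm (cytosolic muscle creatine kinase) rose by 4.25, Mb (myoglobin) by 4.30 and Slc6a8 (the creatine transporter) by 2.35, and 8 of 11 tested members rose in all. Gatm and Gamt, the enzymes that make creatine, fell by 1.54 and 1.30, calls lost with quantile normalisation for Gatm (adjusted p = 0.0687) and without a variance trend for Gamt (adjusted p = 0.0582). Mb had levels of 9.93, 5.07 and 6.18, so the adult was above both fetal arrays. Antioxidant genes rose at 14 of 25 members and fell at 1 (median 1.29). Sod3, the extracellular superoxide dismutase, rose by 7.25 from levels of 4.32, -2.54 and -3.32. Gstm1 and Gsta3, glutathione transferases, rose by 4.86 and 6.50. Hmox1, heme oxygenase, fell by 0.98, with another probe at 0.17 and no call with quantile normalisation (adjusted p = 0.0716).

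Glycolysis genes as a list moved little, with 8 of 29 higher, 5 lower and a median of 0.23 that turned to -0.11 against the Myh6-EGFP array alone. Transporters and isoforms within it moved in opposite directions. Slc2a1, the ubiquitous glucose transporter GLUT1, had levels of 1.96, 5.19 and 6.22, a difference of -3.74 (SE 0.37, adjusted p = 3.32e-12). Slc2a4, the insulin-responsive transporter GLUT4, had levels of 7.82, 2.96 and 3.73, a difference of 4.48 (SE 0.37, adjusted p = 1.11e-14). The adult array was below both fetal arrays for the first and above both for the second. Slc2a3 (GLUT3) fell by 2.96 and Slc16a3, the lactate exporter MCT4, fell by 5.20 from levels of 0.69, 5.32 and 6.45. Hk2, the hexokinase of insulin-sensitive muscle, had levels of 4.37, 2.05 and 2.79 and rose by 1.95. Hk1 had levels of 7.87, 7.94 and 8.35 and a difference of -0.27 (SE 0.60, adjusted p = 0.752), with other probes at 0.49 to 0.57. Eno3, the muscle enolase, rose by 2.80 while Eno1 fell by 1.70. Pfkm, the muscle phosphofructokinase, rose by 3.26, Aldoc, an aldolase of brain, fell by 4.96, and Ldhb, the heart-type lactate dehydrogenase, rose by 2.10. In the hypoxia list, 9 of 23 genes rose and 5 fell. Epas1 (HIF-2 alpha) rose by 3.34, with other probes at 0.48 to 2.35. Hif1a fell by 2.11, with another probe at -0.56, while Vegfa, a vascular growth factor, rose by 2.21.

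Natriuretic peptide genes did not move as 1 group: 4 of 7 tested members rose and 1 fell. Nppa, atrial natriuretic peptide, had levels of 9.10, 8.32 and 9.12, so the adult lay between the fetal arrays (difference 0.37, SE 0.72, adjusted p = 0.712). Nppb, the B-type peptide, had levels of 7.31, 3.77 and 4.82, a difference of 3.01 (SE 0.40, adjusted p = 1.28e-08). Npr3, the clearance receptor, fell by 1.67, and the processing enzymes Corin and Pcsk6 rose by 1.45 and 2.45. Quantile normalisation did not keep the calls of Npr3 (adjusted p = 0.0772) and Corin (adjusted p = 0.131). The title of the adult sample reads total heart and does not name the chambers it holds. Of 15 tested atrial genes 3 rose and 4 fell, and of 11 ventricular genes 4 rose and 2 fell, so neither chamber list moved as a whole.

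Cell division genes fell almost without exception. Of 37 tested DNA replication genes 33 fell and 0 rose (median -3.41), and of 43 mitosis genes 42 fell and 0 rose (median -5.50, or -4.86 with 14 genes set at their bounds), against 19.1% called lower over all genes. The 2 fetal arrays hardly differed here, with list medians of -3.48 and -3.33 for replication and -5.50 and -5.27 for mitosis. The 4 replication and 14 mitosis members dim in the adult were tested only because they were bright on both fetal arrays, so they could hardly rise. Ccnb1, the mitotic cyclin B1, had levels of -2.90, 4.97 and 5.04, a difference of -7.91 (SE 0.33, adjusted p = 1.42e-25). Mki67, the marker Ki-67 of cycling cells, had levels of 0.29, 5.36 and 5.01, a difference of -4.90 (SE 0.33, adjusted p = 8.77e-18). The adult array was far below both fetal arrays, but the Mki67 probe was still above background there. Plk1, a mitotic kinase, fell by 6.59 and Prc1, a spindle protein, fell by 6.29. Cdk1, the mitotic kinase partner of cyclin B, was at least 101-fold lower and Top2a, which untangles chromosomes, at least 94.8-fold lower, as their adult probes were dim. Other Cdk1 probes gave differences of -3.90 to -1.71. Among replication genes, Mcm6 of the replicative helicase fell by 4.94, Rrm2, which supplies nucleotides, by 6.06, Chaf1b, a histone chaperone, by 4.80, and Uhrf1, which maintains DNA methylation, by 5.48. The other Uhrf1 probe gave -0.24, so its fall rests on 1 of 2 probes. The genes not called were Gmnn, Cdc45, Gins3 and Tyms of the replication list and Cenpf of the mitosis list, named after their values were seen. Inhibitors and brakes of the cycle were mixed, with 4 of 20 higher and 9 lower. Cdkn1c, an imprinted inhibitor of cyclin-dependent kinases, had levels of 2.33, 7.55 and 7.99 and fell by 5.43. Ccng1, a cyclin induced by p53, rose by 3.05. Meis1, a homeobox factor linked to cardiomyocyte cell cycle exit, had levels of 3.20, 4.74 and 4.01 and fell by 1.17, a call lost with quantile normalisation (adjusted p = 0.115).

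Since the division genes moved together, the 250 bases before their RefSeq gene starts (GRCm38.p6) were searched for letters of known cell cycle motifs on both strands. E2F factors bind TTTCCCGC, TTTGGCGC and TTTCGCGC, of which 1 or more stood in 9 of 31 replication promoters (29%), 1 of 35 mitosis promoters (2.86%) and 480 of all 27025 genes with a promoter (1.78%). The CCAAT box, spelled CCAAT, stood in 24 of 35 mitosis promoters (68.6%), 19 of 31 replication promoters (61.3%) and 37.5% of all. The cell cycle homology region, searched as TTTGAA, stood in 28.6% of mitosis promoters, 16.1% of replication promoters and 18.3% of all. CCAAT was also above the share of all promoters in lists that rose, at 51.2% for fatty acid oxidation and citrate cycle and 47.8% for adult-type sarcomere genes. A match describes letters only and is no evidence of binding. Shown are, for each of the 2 lists, the 2 members with the largest measured fall whose promoter holds an E2F match (replication) or a CCAAT match (mitosis), with matches to the motif on either strand in capitals. Uhrf1 is at chr17:56304063-56304312 (plus strand), Mcm6 at chr1:128359706-128359955 (minus strand), Ccnb1 at chr13:100786487-100786736 (minus strand) and Plk1 at chr7:122159185-122159434 (plus strand). In Mcm6 the capitals hold 3 matches, of which a pair on opposite strands overlaps. In Ccnb1 the CCAAT matches begin 99 and 67 bases before the start. The element TCAAGGTCA, bound by oestrogen-related receptors, stood in 0 of 43 promoters of the fatty acid oxidation and citrate cycle lists, 1 of 67 promoters of the respiratory complexes and ATP synthase, and 0.422% of all.
Uhrf1: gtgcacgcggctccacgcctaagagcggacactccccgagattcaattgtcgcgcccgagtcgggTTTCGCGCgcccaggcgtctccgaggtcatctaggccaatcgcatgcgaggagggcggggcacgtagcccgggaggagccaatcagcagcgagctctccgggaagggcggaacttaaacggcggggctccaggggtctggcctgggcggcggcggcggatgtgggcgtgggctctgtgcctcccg
Mcm6: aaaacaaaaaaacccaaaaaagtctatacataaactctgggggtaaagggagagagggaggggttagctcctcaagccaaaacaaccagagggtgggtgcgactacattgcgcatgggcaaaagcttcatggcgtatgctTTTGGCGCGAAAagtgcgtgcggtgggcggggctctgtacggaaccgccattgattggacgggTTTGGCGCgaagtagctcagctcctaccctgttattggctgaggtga
Ccnb1: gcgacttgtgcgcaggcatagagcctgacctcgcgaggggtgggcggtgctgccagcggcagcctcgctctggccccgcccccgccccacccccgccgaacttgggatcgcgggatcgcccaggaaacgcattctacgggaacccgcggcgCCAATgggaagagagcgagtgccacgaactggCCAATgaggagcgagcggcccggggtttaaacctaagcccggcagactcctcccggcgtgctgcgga
Plk1: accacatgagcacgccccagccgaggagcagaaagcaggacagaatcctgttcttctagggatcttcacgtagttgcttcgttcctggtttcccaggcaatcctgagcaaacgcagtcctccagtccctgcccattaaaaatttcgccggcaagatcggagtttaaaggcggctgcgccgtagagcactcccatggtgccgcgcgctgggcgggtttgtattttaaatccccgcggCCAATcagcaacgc

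Imprinted growth genes and fetal RNA-binding proteins were lower in the adult. Of 21 tested imprinted genes 15 fell and 0 rose (median -3.32, or -2.64 with 5 at bounds). Igf2, the main fetal growth factor, had levels of -2.54, 3.46 and 3.68, a difference of -6.11 (SE 0.36, adjusted p = 3.79e-20). H19, the non-coding RNA next to it, had levels of 3.41, 9.32 and 9.95, a difference of -6.23 (SE 0.55, adjusted p = 1.03e-13), and its 6 other probes ranged from -7.12 to -2.05. Mest, of the same network, fell by 7.22, and Nnat was at least 58.4-fold lower. Of 12 tested fetal RNA binders and related regulators 10 fell and 0 rose (median -3.42, or -2.74 with 6 at bounds). In both lists, members dim in the adult were tested only because they were bright on both fetal arrays, so they could hardly rise. Igf2bp1 and Igf2bp3, which bind Igf2 and other fetal messages, were at least 40.6-fold and 39.7-fold lower. Lin28b, which blocks maturation of let-7 microRNAs, had levels of -5.36, -0.39 and -0.90 and was at least 6.81-fold lower. Hmga2, a chromatin protein and let-7 target, was at least 77.2-fold lower. For these 4 genes the adult probe was dim and both fetal arrays were above background. In the IGF axis 4 of 15 genes rose and 6 fell. The binding proteins diverged, with Igfbp2 at least 86.1-fold lower, Igfbp5 lower with a difference of -2.48, Igfbp6 higher by 3.33 and Igfbp7 at least 18.3-fold higher. Insr, the insulin receptor, rose by 1.51, a call lost with quantile normalisation (adjusted p = 0.132). Igf1r fell by 1.20, a call lost without a variance trend (adjusted p = 0.0609). Igf1 fell by 1.59, but its other probes ranged from -2.53 to 0.48.

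Core cardiac transcription factors had a smaller median difference than the DNA replication and mitosis lists. Of 35 tested factors 13 fell, 2 rose and 20 were not called (median -0.43), against 19.1% lower and 21.8% higher over all genes. Gata4 had levels of 3.59, 3.08 and 3.97, so the adult lay between the fetal arrays (difference 0.07, SE 0.35, adjusted p = 0.896). Nkx2-5 had levels of 4.62, 4.16 and 5.54, again between them (difference -0.23, SE 0.39, adjusted p = 0.681). Hand1 of the fetal left ventricle was at least 9.69-fold lower, Irx6 at least 16.9-fold lower and Hey2, a Notch target of the compact ventricle, at least 10-fold lower. Tbx18, of epicardium and sinus node, fell by 2.43. Smyd1, a muscle methyltransferase, rose by 1.85 and Hopx by 1.00, and both calls were lost with quantile normalisation (adjusted p = 0.0693 and 0.275).

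Splicing regulators changed in both directions, with 6 of 20 higher and 8 lower. Rbfox1, a splicing factor of mature muscle and neurons, had levels of 4.43, 0.03 and 0.62 and rose by 4.11. Mbnl1, of the muscleblind family that sets adult splicing, rose by 1.71, whereas its relative Mbnl3 was at least 30.1-fold lower, with another probe at a difference of -4.16. Ptbp1, Srsf1 and Hnrnpa1, abundant in proliferating cells, fell by 2.30, 1.80 and 2.33. Qk rose by 2.36, with other probes from -0.55 to 1.56. Rbm20, the regulator of titin splicing, rose by 1.74, a call lost with quantile normalisation (adjusted p = 0.111).

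The muscle forms of a ribosomal protein and of an elongation factor rose. Rpl3l, a paralogue of ribosomal protein L3 made in heart and skeletal muscle, had levels of 5.98, -5.43 and -3.31, a difference of 10.35 (SE 0.57, adjusted p = 6.15e-21). Its probe was well above background on the adult and Myh6-EGFP arrays and dim on the wild-type array. Rpl3 itself had levels of 7.01, 8.27 and 8.37, a difference of -1.31 (SE 0.58, adjusted p = 0.066), with the adult below both fetal arrays, and was called lower with quantile normalisation (adjusted p = 0.0327). Eef1a2, the elongation factor of muscle and neurons, rose by 3.74 while Eef1a1 fell by 1.70. Of the 22 tested members of the list 4 fell and 2 rose, shares at or below those of all genes. Yet 18 of the 22 lay below both fetal arrays, against 41.5% of all genes, with a median difference of -0.63. Rps4y2, the array's name for a probe matched to RefSeq Rps4l, fell by 2.42. Rpl39l was at least 1.48-fold lower, its adult probe being dim. The Rpl39l call was lost with normexp (adjusted p = 0.858) and with no filter on dim probes (adjusted p = 0.0794). The probe of Rpl3l, at chr17:24872413-24872681 (mm9, plus strand), shares a longest run of 5 bases with that of Rpl3, in capitals. As for troponin I, such a run between probes says nothing of binding to the related transcript.
Rpl3l: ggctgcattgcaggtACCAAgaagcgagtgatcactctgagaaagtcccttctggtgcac

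Targets of thyroid and glucocorticoid hormones and clock genes were higher in the adult. Both hormones rise around birth and act on heart maturation. Of 17 tested hormone receptors and targets 12 rose and 1 fell (median 1.64). Klf9, a target of both hormones, had levels of 3.97, -0.85 and -0.82, a difference of 4.81 (SE 0.39, adjusted p = 7.39e-15). Zbtb16, a glucocorticoid-induced factor, rose by 6.10 and Hsd11b1, which regenerates the active glucocorticoid, by 4.64. Thrb, a thyroid hormone receptor, was at least 12.5-fold higher. Hif3a fell by 5.32 from levels of -1.50, 3.52 and 4.13, with other probes at -5.75 to -1.04. Of 17 clock genes 12 rose and 0 fell (median 2.42). Dbp, an output factor of the clock, had levels of 6.49, 2.00 and 2.82, a difference of 4.08 (SE 0.35, adjusted p = 2.74e-14). Nr1d1 and Nr1d2, the REV-ERB repressors, rose by 3.73 and 2.91, and Per2 rose by 2.85. Arntl, the core activator, was not called (difference -0.37, SE 0.50, adjusted p = 0.589), and it is named after its value was seen. The labels give no time of day for any sample.

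**Figure D4:**
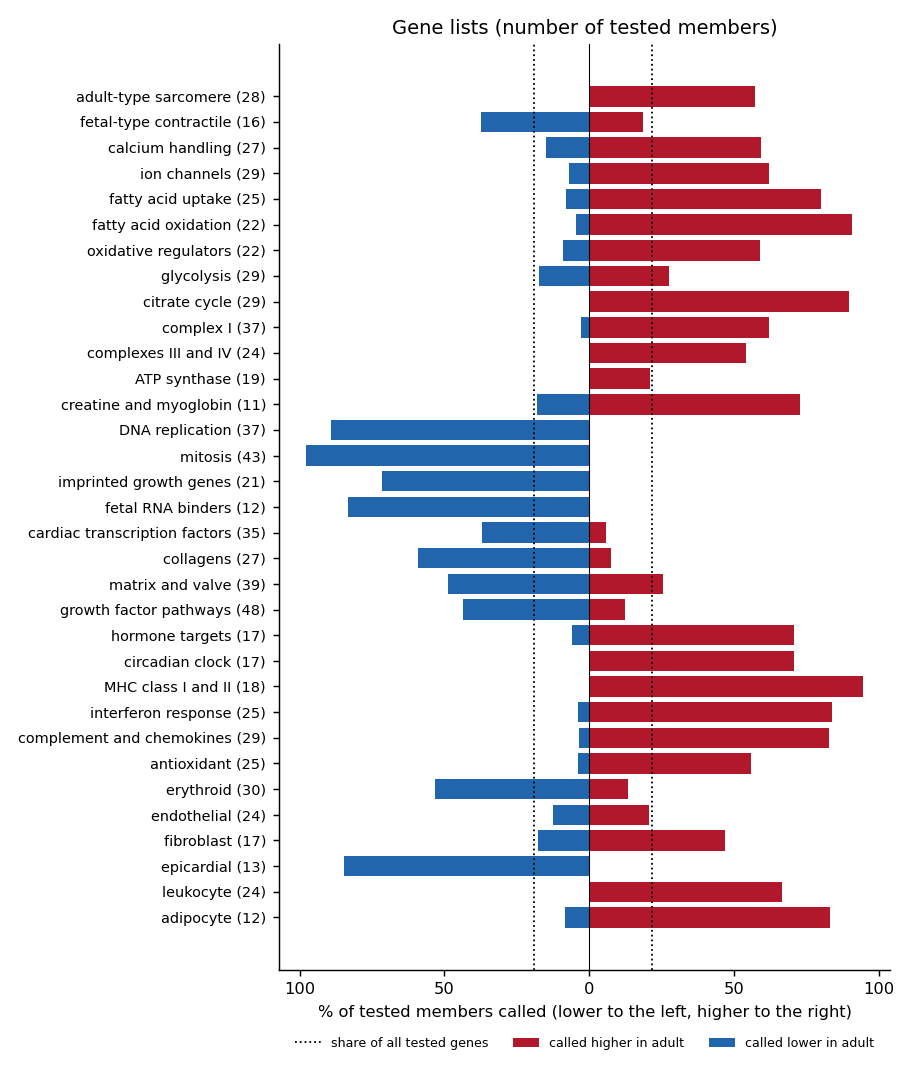
Share of tested members of 33 gene lists called higher (red, to the right) or lower (blue, to the left) in the adult heart; dotted lines mark the shares of all tested genes, 21.8% higher and 19.1% lower. Oxidation, citrate cycle, MHC, interferon and complement lists reach far to the right, mitosis, DNA replication, RNA binder and epicardial lists far to the left, and the ATP synthase and endothelial lists stay near the dotted lines.

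Immune genes were among the groups most uniformly higher in the adult. Of 18 tested MHC class I and II genes 17 rose and 0 fell (median 3.42). Of 25 interferon-response genes 21 rose and 1 fell (median 3.07, or 2.94 with 6 at bounds). Of 29 complement and chemokine genes 24 rose and 1 fell (median 3.33, or 2.88 with 5 at bounds). Members dim on both fetal arrays were tested only because they were bright in the adult, so they could hardly fall. The medians against the wild-type and Myh6-EGFP arrays were 3.58 and 3.49, 3.28 and 3.18, and 3.23 and 3.37. H2-Eb1, an MHC class II beta chain, had levels of 5.37, -0.91 and -0.09, a difference of 5.86 (SE 0.37, adjusted p = 8.74e-19). Cd74, the chaperone of class II molecules, rose by 5.78. Psmb9, of the immunoproteasome, rose by 4.44 and Tap2, a peptide transporter, by 4.60, from levels of 4.07, -0.76 and -0.29. Complement C3 had levels of 6.71, 0.54 and -0.50, a difference of 6.70 (SE 0.36, adjusted p = 1.60e-21), and C4b, C1ra and C1s rose too. Their probes were dim on the Myh6-EGFP array, and against the wild-type array, where they were measured, the differences were 7.66, 5.62 and 6.08. The chemokine Ccl6 rose by 5.23. Cfi, a complement inhibitor made in liver, fell by 3.52. Among interferon targets Ifi27l2a rose by 5.43 and Ifit3 by 4.39, Oas2, dim on the Myh6-EGFP array, was 4.79 above wild type, and Irf7 was at least 19.9-fold higher. Oas1a went the other way and was at least 7.36-fold lower in the adult, with another probe at a difference of -2.38. Leukocyte genes were higher beside them: 16 of 24 rose and 0 fell, with summed signals of 180 on the adult array and 49.5 and 54.4 on the fetal arrays. Lyz2, a lysozyme of macrophages and neutrophils, had levels of 3.06, -1.59 and -1.26 and rose by 4.49, and Cd14 of monocytes rose by 3.88. Retnla, made by macrophages and adipose tissue, was at least 90.3-fold higher. Ptprc, the pan-leukocyte marker CD45, had levels of -2.46, -3.87 and -3.87 and a difference of 1.41 (SE 0.70, adjusted p = 0.103), named after its value was seen. The part of leukocyte number in the immune lists was not tested. Immediate early genes, which respond to handling of tissue, rose at 10 of 23 members and fell at 0, against 21.8% and 19.1% over all genes. Egr2, Klf4 and Nr4a1 rose by 2.56, 2.2 and 2.04. Junb, dim on both fetal arrays, was at least 3.96-fold higher, a call lost with normexp. Ier5 rose by 1.86, a call lost with quantile normalisation. Fos and Egr1 were not called, at 0.07 and 0.63 (SE 0.46 and 0.34, adjusted p = 0.92 and 0.142), again named after their values were seen.

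Matrix genes went in both directions, with more falling. Of 27 tested collagens 16 fell and 2 rose (median -1.48, or -1.27 with 5 at bounds). Their median was -1.56 against the wild-type and -1.47 against the Myh6-EGFP fetal array. Yet 11 collagens were at least 2-fold lower on the Myh6-EGFP than on the wild-type fetal array, against 4.34% of all genes. The list includes Col2a1, the collagen of cartilage. Of 39 other matrix and valve genes 19 fell and 10 rose. Fbn2, the fetal fibrillin, had levels of -2.74, 5.04 and 4.95, a difference of -7.74 (SE 0.33, adjusted p = 2.52e-25). Vcan, the versican of endocardial cushions, fell by 3.56 (another probe gave -2.25) and Mfap2, a microfibril protein, by 4.53. Hapln1, which links hyaluronan and versican, was at least 32.8-fold lower. Emid2, a collagen, fell by 6.72 and Col18a1 by 3.76, from levels of 2.00, 5.59 and 5.94. Eln, elastin, fell by 3.26. Dcn (decorin), a small proteoglycan of mature connective tissue, had levels of 8.50, 5.93 and 5.62 and rose by 2.73. Ogn, another small proteoglycan, rose by 2.10, a call lost with quantile normalisation (adjusted p = 0.0656). Lama2, the laminin of muscle basement membranes, rose by 2.03. Col8a1 rose too and was 3.97 above the wild-type array, its probe being dim on the Myh6-EGFP array. Postn, periostin of the fetal fibroblast and injured heart, had levels of 2.52, 3.91 and 3.86 and fell by 1.37. Of 48 growth factor pathway genes 21 fell and 6 rose. Bmp7 fell by 4.99, Erbb2, the neuregulin co-receptor, by 3.16, and Sfrp2, a Wnt antagonist, by 3.60. Fgf1 rose by 4.35 from levels of 6.03, 1.32 and 2.05. Rbp4 was called higher by 1.43, but its adult level of 1.96 lay between the wild-type (2.15) and Myh6-EGFP (-1.07) arrays.

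Markers of the non-muscle cells of the heart moved apart from each other. Epicardial genes fell at 11 of 13 members and rose at 0 (median -2.43), with summed signals of 22.5 in the adult and 101 and 94.1 on the fetal arrays. Krt19, a keratin of the epicardial sheet, had levels of -0.13, 3.48 and 4.03 and fell by 3.88, and Bnc1, a mesothelial transcription factor, was at least 11.8-fold lower. Endothelial genes stayed near the background, with 5 of 24 higher and 3 lower. Plvap, of fenestrated endothelium, fell by 2.01 and Flt1, a VEGF receptor, rose by 1.47, with a call lost under quantile normalisation (adjusted p = 0.0863). Fibroblast genes rose at 8 of 17 and fell at 3, and their median of 1.03 depended on the fetal array, being -0.15 against wild type and 1.53 against Myh6-EGFP. Pi16, of resting adventitial fibroblasts, had levels of 5.49, 0.03 and 1.08 and rose by 4.93, and Dpep1 and Gsn rose by 4.24 and 2.87, while Col1a1 fell by 1.96. Col3a1 fell by 1.27, a call lost with quantile normalisation (adjusted p = 0.0815). Mural cell genes were also mixed, with 7 of 14 higher and 3 lower, and a median of 0.32 against wild type and 2.05 against Myh6-EGFP. Lower were Cnn1, Tagln and Cspg4, with differences of -3.43, -1.32 and -0.90. The calls of Tagln and Cspg4 were lost without a variance trend. Rgs5, of pericytes, had levels of 3.84, -0.05 and -0.57 and rose by 4.15, and Higd1b, also of pericytes, rose by 5.64. Myh11, the smooth muscle myosin, was called higher, but its levels of 1.13, 0.44 and -5.39 put the adult close to wild type and far above Myh6-EGFP, and 4 alternatives did not keep it. Adipocyte genes rose at 10 of 12 members and fell at 1 (median 4.01, or 3.16 with 5 at bounds), and Thrsp, a lipogenic gene, rose by 7.11. Their summed signal was 205 in the adult and 15.7 and 32.0 on the fetal arrays. Adipocyte genes dim on both fetal arrays were tested only because they were bright in the adult, so they could hardly fall. Lep and Ucp1, which define white and brown adipocytes, were not well above background on any of the 3 arrays, and Adipoq had levels of -1.70, -6.24 and -6.02. Neural and Schwann cell genes were split, with 5 of 13 higher and 5 lower. Ngfr, Fabp7, Tubb3 and Mbp were among those that fell. Their calls were lost with quantile normalisation for Ngfr, with normexp for Fabp7 and Tubb3, and with the mean of all probes for Mbp. Dbh, which makes noradrenaline in sympathetic nerves, rose by 4.30, and Th rose by 1.52, a call lost with quantile normalisation (adjusted p = 0.0531).

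Red cell transcripts separated into embryonic and adult types. Of 30 tested erythroid genes 16 fell and 4 rose (median -1.44, or -0.87 with 8 at bounds). The embryonic globin Hbb-bh1 had levels of -1.56, 5.05 and 5.67 and fell by 6.92, beside the falls of Hbb-y and Hba-x given above. The adult globins Hba-a1 and Hbb-b1 had levels of 9.52, 9.54 and 10.23 and of 9.06, 9.38 and 9.93, with differences of -0.37 (SE 0.88) and -0.60 (SE 0.82) and adjusted p-values of 0.771 and 0.593. Both adult globins thus lay at or just below the fetal arrays, and near-identical copies of these genes can share signal. Ahsp, a chaperone of alpha globin in red cell precursors, fell by 6.57 and Slc4a1, the band 3 anion exchanger, by 3.16. Tfrc, the transferrin receptor, Ank1, an ankyrin, and Spnb1, a spectrin, rose by 2.62, 4.98 and 2.98, and the last 2 are made in muscle as well. The probes of the embryonic globins, at chr7:111000448-111000507 (minus strand) and chr11:32177668-32177727 (plus strand) in mm9, are shown with the longest run shared with an adult globin probe in capitals, 6 bases in each. These runs between probes say nothing of binding to the adult globin transcripts.
Hbb-y: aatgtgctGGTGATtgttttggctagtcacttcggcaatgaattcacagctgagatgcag
Hba-x: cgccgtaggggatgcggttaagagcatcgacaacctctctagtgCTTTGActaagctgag

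Of 15 tested skeletal muscle genes 5 rose and 8 fell. Between the fetal arrays the list was mixed, with 4 members at least 2-fold lower and 3 at least 2-fold higher on the Myh6-EGFP array and summed signals of 277 in wild type and 404 in Myh6-EGFP. Myh3, the embryonic skeletal myosin, had levels of -3.95, 4.98 and 1.07 and was at least 86.7-fold lower in the adult, and Tnnc2, fast skeletal troponin C, had levels of -1.46, 4.22 and 0.09. Both genes had higher levels on the wild-type than on the Myh6-EGFP fetal array, and both calls were lost with a robust prior (adjusted p = 0.415 and 0.617). Tnni2, fast skeletal troponin I, had levels of 0.36, 4.39 and 5.30 and fell by 4.48. Sex-linked genes were not matched between the samples. The Y-linked Ddx3y and Eif2s3y were above background on all 3 arrays and rose by 1.22 and 1.18 in the adult, calls that quantile normalisation did not keep (adjusted p = 0.129 and 0.0566). For Xist, the RNA of the inactive X chromosome, the array has 2 names. The probe named XIST had levels of -5.49, -2.56 and 0.34 and was called lower in the adult, where it was dim. The probe named Xist had levels of -5.52, -2.61 and -4.41 and was not tested. The labels give no sex for any sample, and sex and age cannot be told apart here.

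Differences against each fetal array show which results depend on the choice of fetal heart. Of the 33 lists plotted, all but glycolysis and fibroblast genes had a median on the same side of 0 against both arrays. Among lists not plotted, the median changed sign for cell cycle inhibitors (0.04 against wild type and -0.17 against Myh6-EGFP), atrial genes (0.47 and -0.03) and lung, liver and thymus genes (-1.51 and 0.51). The median of the glycolysis list was 0.59 against wild type and -0.11 against Myh6-EGFP, and that of the fibroblast list -0.15 and 1.53. Citrate cycle genes had 28 of 29 members at least 2-fold above the wild-type array and 22 above the Myh6-EGFP array. Complex I had 35 of 37 and 23, and ATP synthase 15 of 19 and 3. MHC genes had 17 of 18 against each fetal array, and mitosis genes had 41 of 43 at least 2-fold lower against each.

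**Figure D5:**
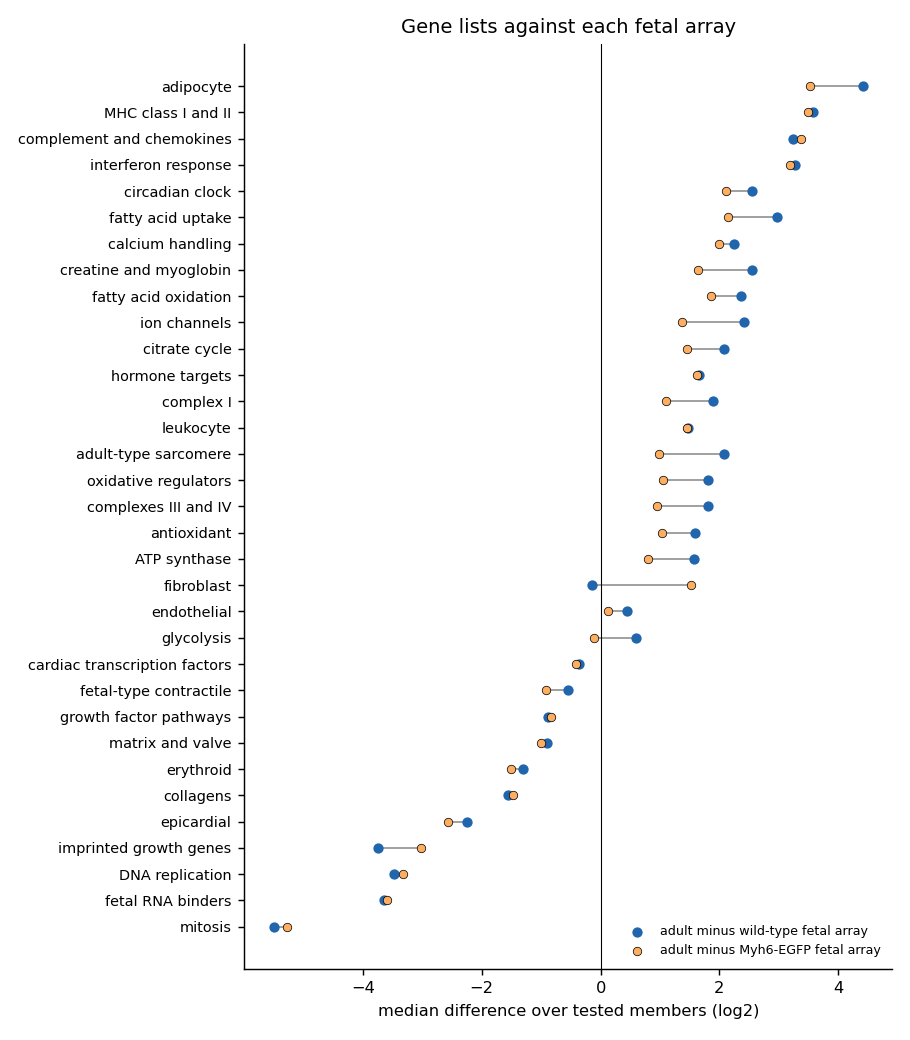
Median difference (log2) over the tested members of 33 gene lists between the adult array and the wild-type fetal array (blue) or the Myh6-EGFP fetal array (orange), sorted by the median difference from the fetal mean. Sarcomere, ion channel and mitochondrial lists lie further right against the wild-type array, the MHC, interferon, complement and leukocyte medians nearly coincide, and the fibroblast and glycolysis medians change sign.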

How the data were processed

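Total RNA of 3 heart samples was measured on 1-colour Agilent arrays, read with Feature Extraction 10.7.3.1 per the file headers (9.5.3 per the submitters' processing notes). The deposited spot intensity used is the processed signal, background-subtracted and detrended per the file headers. The authors' deposited log2 table equals the log2 of this signal minus a constant per array and served as an alternative. Control spots and 8 probes with outlier flags were left out, 55673 probes were kept, and no spot was saturated. Log2 signals were centred on each array's 75th percentile. A gene was its probe with the highest mean of both group means, tested where well above background in the adult or on both fetal arrays. limma 3.58.1 (R 4.3.3; lmFit, eBayes with a trend) was fitted to 3 arrays, with 1 residual degree of freedom and Benjamini-Hochberg adjustment over 21055 genes, two-sided. The fit was tested on simulated data. Where a group's probe was dim, "at least" gives the bright group's mean against, per dim array, the higher of the lowest signal well above background and the probe's own.

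Text names the 12 largest called genes in each direction, up to 5 called members per list and direction, a fixed set of marker genes, and others where said. Adipoq, Lep, Ucp1, Ptf1a, Sftpc, Cacna1c, XIST and the adult globins fall outside this rule and were named after their values were seen. A few genes that the rule names are not reported here. The genes, lists and tests were chosen with earlier results of these data known. Probe and gene names are the array's; 20660 of 34793 matched a RefSeq entry. Probe coordinates are mm9 per the file headers, and promoters are RefSeq's on GRCm38.p6. The number of arrays limits the precision. Alternatives were normexp background, quantile and another scaling, no or a stricter filter, the mean of all probes, other variance priors, and leaving out each fetal array.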

Additional observations from a re-analysis of the deposited data

How the results depend on the processing

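The number of genes called ranged from 6211 with quantile normalisation to 8882 with a robust prior, against 8612. Genes at least 2-fold from both fetal arrays numbered 5008 with normexp background, against 7891, and 9052 to 10120 with 1 fetal array left out. Genes at least 2-fold apart between the fetal arrays numbered 711 with normexp, 5294 with no filter on dim probes and 1148 with genes well above background on all 3 arrays, against 2020. Of 352 named gene results, 79 lost their call in at least 1 alternative, 53 of them with quantile normalisation and 40 without a variance trend. With 1 fetal array left out, Myom3 ranged from -0.25 (reversed, without fetal heart replicate 2) to 4.16 and Rbp4 from -0.18 (reversed, likewise) to 3.04. The medians of 6 of 50 lists changed sign in some alternative, among them the skeletal muscle list, at 1.11 with genes above background on all 3 arrays. With no filter the median of all genes was 0.50. The cause of these changes was not tested. Pooling in limma counted as 2.89 degrees of freedom with quantile normalisation and 6.26 without a variance trend, against 49.38 in the main fit. A call lost in these settings thus need not mean a changed difference. Without either fetal array a fit has no residual degree of freedom, so only values were compared. A slide or scan block could not be fitted, as the 3 arrays share 1 slide and 1 scan. No paired analysis was possible because the adult group has 1 sample and the groups share fewer than 2 numbers.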
